A study of Mus musculus with 12 samples.

Results

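The genes for mitochondrial ribosomal proteins were followed as a group in skeletal muscle of mice with or without a deletion of Stat5a and Stat5b, with or without growth hormone (GH). All genes whose array symbol is Mrpl or Mrps followed by a number were taken, and for each gene the brightest probe set, by its mean over 12 arrays, was used. This gave 76 of the 18193 genes on the array, 47 named for the large subunit (Mrpl) and 29 for the small subunit (Mrps). The choice used names and brightness, not differences between groups. All 76 were bright enough to be tested, among 12654 genes kept. Mrpl1 and Mrps27 were the dimmest, with mean log2 values of 9.35 and 9.94 against a floor of 6.253, so no member lay near the filter. The probe sets that carry Mrpl30 and Mrpl53 also carry a 2nd gene's symbol, and these genes were left out.

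Mitochondria hold a ribosome of their own, which translates the few proteins encoded by mitochondrial DNA, all of them parts of the respiratory chain and of ATP synthase. Its proteins are encoded in the nucleus, made in the cytosol and imported. The small subunit reads the mRNA, and the large subunit joins the amino acids and feeds the new protein through its exit tunnel towards the inner membrane. Some of its proteins descend from those of the bacterial ribosome, while others are found only in mitochondria. Skeletal muscle, and slow oxidative fibres in particular, depends on this machinery for its respiratory capacity.

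Each of the 4 groups held 3 mice, and each mouse had its own 1-colour Affymetrix array. WT mice carried Stat5a and Stat5b and received no GH. KO mice carried a deletion of both genes and received no GH, and WT with GH and KO with GH were the same genotypes given GH. GH signals through its receptor to STAT5, so that the KO groups ask how far a difference with GH needs that route. The protocol label places the deletion in blood cells, whereas the series title speaks of muscle, and neither the Cre line nor the strain, sex, age, GH dose or time after GH is given in the sources used here. The deleted genes were lower in the muscle RNA itself (limma adjusted p at most 0.00483). Mean Stat5b signal was 2820 in WT and 428 in KO, and 1794 and 362 with GH. Mean Stat5a signal was 627 and 255, and 402 and 162 with GH, so part of the signal of both genes remained in KO muscle. The 9 fast fibre markers lay at a median percentile of 100 among all genes, and hepatocyte, lymphocyte and red cell markers at 26.8, 27.2 and 26.1. Brown adipocyte, adipocyte, macrophage and endothelial markers lay at 92, 86.5, 71.1 and 70.5. The tissue thus read as muscle, but not as muscle fibres alone.

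The arrays with GH differed from those without in ways that were not about muscle genes. Poly-A control RNAs, which are added before labelling, had a geometric mean signal of 442 to 467 with GH and 129 to 168 without. Median signal was 97.4 to 101.8 with GH and 79.3 to 92.4 without, and the actin 3 prime over 5 prime ratio was 0.887 to 1.01 against 0.805 to 0.864 (exact permutation p = 0.0022 for each of the 3, the smallest that 6 arrays against 6 allow, and adjusted p = 0.0029 over 4 measures). For Gapdh the same ratio was 0.834 to 0.877 on the arrays without GH and 0.795 to 0.860 on those with it (exact permutation p = 0.156). The array titles also number the animals with GH in another style, with an M before the number, than those without. GH therefore cannot be told apart from labelling, or from anything else that differed between these sets of mice and arrays. Every difference with GH below carries this limit. Among the arrays without GH, WT 1 and KO 3 had the lowest quality weights (0.319 and 0.421). In bulk muscle, fewer cells of a type and less RNA per cell cannot be told apart either.

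The start regions of 4 members on which the results turn are shown here. Mrpl49 and Mrps27 were lower with GH in both genotypes, Mrpl33 was the only member that rose with GH in KO, and Mrpl50 was the only one that differed between the genotypes. Each window runs from 250 bases before to 50 after the annotated start in RefSeq (GRCm38.p6). Capitals mark matches on either strand to 4 patterns: CCGGAAG, the core bound by the ETS factor GABP, GCATGCGC, the core bound by NRF1, AAGATGGC, which holds the core bound by YY1, and TTCNNNGAA, the site bound by STAT factors. The first 3 factors are known regulators of nuclear genes for mitochondrial proteins.
Mrpl49, chr19:6057706-6058005, minus strand: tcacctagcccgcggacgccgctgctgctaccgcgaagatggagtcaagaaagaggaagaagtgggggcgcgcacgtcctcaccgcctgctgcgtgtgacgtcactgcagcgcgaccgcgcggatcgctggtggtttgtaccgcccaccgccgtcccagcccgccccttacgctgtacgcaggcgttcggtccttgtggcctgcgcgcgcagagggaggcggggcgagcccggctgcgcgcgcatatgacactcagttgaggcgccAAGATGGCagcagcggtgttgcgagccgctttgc
Mrps27, chr13:99344536-99344835, plus strand: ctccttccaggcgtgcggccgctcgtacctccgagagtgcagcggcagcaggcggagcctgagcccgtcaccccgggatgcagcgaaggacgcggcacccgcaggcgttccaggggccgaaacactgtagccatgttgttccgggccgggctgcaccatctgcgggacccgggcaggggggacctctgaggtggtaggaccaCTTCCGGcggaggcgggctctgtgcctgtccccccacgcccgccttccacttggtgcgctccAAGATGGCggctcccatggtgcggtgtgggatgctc
Mrpl33, chr5:31613701-31614000, plus strand: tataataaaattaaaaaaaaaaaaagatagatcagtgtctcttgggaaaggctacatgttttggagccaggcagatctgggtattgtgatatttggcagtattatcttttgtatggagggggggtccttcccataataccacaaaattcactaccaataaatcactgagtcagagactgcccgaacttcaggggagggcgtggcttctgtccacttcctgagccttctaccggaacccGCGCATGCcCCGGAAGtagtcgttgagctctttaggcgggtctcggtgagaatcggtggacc
Mrpl50, chr4:49521034-49521333, minus strand: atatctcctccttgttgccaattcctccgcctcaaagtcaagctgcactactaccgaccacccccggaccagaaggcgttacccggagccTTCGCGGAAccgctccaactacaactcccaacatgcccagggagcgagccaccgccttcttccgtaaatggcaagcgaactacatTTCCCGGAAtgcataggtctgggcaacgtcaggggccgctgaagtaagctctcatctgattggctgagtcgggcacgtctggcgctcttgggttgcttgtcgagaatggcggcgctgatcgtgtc

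The Mrpl49 window holds AAGATGGC just after the start. The Mrps27 window holds it too, besides CCGGAAG on the opposite strand, printed as CTTCCGG. In the Mrpl33 window GCATGCGC, also on the opposite strand, stands close to CCGGAAG at the start site, and the window of Mrpl50 holds TTCNNNGAA at 2 places and none of the other patterns. Windows were found for 67 of the 76 members, 73 windows in all since some genes have several, not all of them necessarily at the same locus. CCGGAAG stood in 25 of the 73, or 34.2%, against 8.86% of all 32851 windows of the same length. AAGATGGC stood in 12 (16.4% against 2.75%) and GCATGCGC in 8 (11% against 2.71%). TTCNNNGAA stood in 5, or 6.85%, against 8.3% of all windows. Split by response, of the 34 windows of members that fell with GH in either genotype 12 held CCGGAAG, 6 AAGATGGC, 3 GCATGCGC and 3 TTCNNNGAA, and of the 39 other windows 13, 6, 5 and 2. The pattern counts are descriptions of the letters in these windows.

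With GH, part of the mitochondrial ribosomal protein genes of both subunits fell in each genotype, by small amounts. In KO muscle 33 of 76 fell and 1 rose with GH, and in WT muscle 17 fell and 1 rose (limma, adjusted p under 0.05 over all genes kept). Across all genes tested 15.4% fell and 8.93% rose with GH in KO, and 11.8% fell and 7.33% rose with GH in WT. In each genotype 68 of the 76 had a negative log2 fold change. The median over the members was -0.24 in KO and -0.17 in WT, against -0.06 in both over all genes. GH in WT and GH in KO share no arrays, but they share each gene's estimate of the spread, so their calls are not independent. Of the members 13 fell in both, 9 of the large and 4 of the small subunit. That is 76.5% of those that fell in WT and 39.4% of those that fell in KO. A further 20 passed only in KO and 4 only in WT, but the interaction test below called none of them different between the genotypes. The share of all genes that fell in both genotypes is not given here, so these overlaps have no background beside them.

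**Figure D1:**
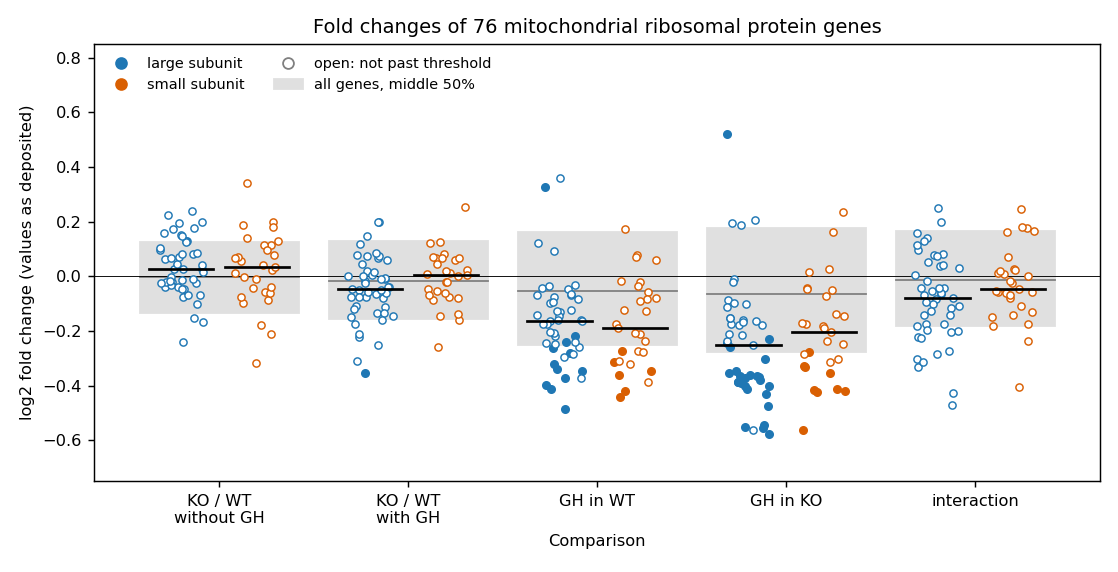
Log2 fold changes (vertical axis, values as deposited) of the 47 large subunit genes (blue) and 29 small subunit genes (orange) in 5 comparisons. Filled points passed limma's threshold, black bars are medians of each subunit, and the grey box with its line gives the middle 50% and the median of all 12654 genes. Most points of both subunits lie below 0 for GH in WT and GH in KO, while the comparisons of KO with WT centre near 0.

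Among the large subunit proteins found only in mitochondria, Mrpl49 had the largest fall in both genotypes. Its signal was 1193, 1265 and 1312 in WT and 919, 882 and 873 in WT with GH, and 1317, 1278 and 1118 in KO and 791, 794 and 874 in KO with GH. All 6 arrays with GH lay below all 6 without. The log2 fold change was -0.48 ± 0.0894 (SE) in WT and -0.58 ± 0.0894 in KO (limma adjusted p = 0.00166 and 0.000322). Its 2nd probe set gave -0.24 and -0.38. Mrpl46 read 2173, 2294 and 2191 in KO and 1489, 1548 and 1469 in KO with GH, a fall of 0.56 ± 0.0815 (adjusted p = 0.000213). In WT it read 1912, 2038 and 2254 without GH and 1851, 1741 and 1642 with GH, which do not overlap, with a log2 fold change of -0.24 (adjusted p = 0.0514). Mrpl41 read 3190, 2374 and 2729 in KO and 1902, 1759 and 1939 in KO with GH (-0.55 ± 0.121, adjusted p = 0.0042), whereas in WT its arrays overlapped (-0.08, adjusted p = 0.687). Mrpl43 fell by 0.43 in KO. In WT, Mrpl40 and Mrpl39 were among the 10 largest falls, by 0.40 and 0.34, and both were called in KO (-0.35 each).

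Large subunit proteins with a bacterial counterpart fell as well. Mrpl15 read 8068, 8423 and 6786 in WT and 6035, 6189 and 5668 with GH. In KO it read 6633, 8047 and 8448 without GH and 5524, 5632 and 5376 with GH. The groups did not overlap in either genotype, and the falls were 0.37 ± 0.0979 and 0.48 ± 0.0979 (limma adjusted p = 0.0155 and 0.00275). Mrpl15 has the most probe sets of any member (8), and the 3 other probe sets with bright signal gave -0.36, -0.31 and -0.38 in WT and -0.55, -0.56 and -0.52 in KO. The probe set used is of a type that can match several transcripts. With the mean of all probe sets Mrpl15 lost its call in WT and kept it in KO. Mrpl22, which lines the exit tunnel, fell by 0.35 in WT and was called in KO too (-0.39). Mrpl14 had the largest fall of this kind in KO (0.54), with a log2 fold change of -0.37 in WT (adjusted p = 0.108). Mrpl18 fell in WT by 0.41 and had -0.21 in KO (adjusted p = 0.256). Of the stalk proteins, which bind the translation factors, Mrpl10 and Mrpl11 passed in KO (-0.40 and -0.23) and had -0.22 and -0.17 in WT (adjusted p = 0.0501 and 0.0959). Mrpl12 passed in WT (-0.22, adjusted p = 0.0492) and had -0.18 in KO (adjusted p = 0.0885). None of the 3 passed in the interaction of genotype and GH (adjusted p = 0.589, 0.891 and 0.933).

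In the small subunit, Mrps27, a protein of the RNA-binding pentatricopeptide repeat family, fell in both genotypes. Its signal was 1078, 1241 and 1083 in WT and 908, 853 and 729 with GH, and 1053, 1207 and 1048 in KO and 872, 777 and 799 with GH. Again the 6 arrays with GH were all below the 6 without. The falls were 0.44 ± 0.104 and 0.42 ± 0.104 (limma adjusted p = 0.00852 and 0.00877). Mrps15, a protein of bacterial descent, read 4525, 3738 and 3366 in KO and 2451, 2451 and 2923 in KO with GH, the largest fall of the small subunit there (0.56 ± 0.163, adjusted p = 0.0221). In WT its arrays overlapped (-0.39, adjusted p = 0.117). Mrps24 read 5898, 5169 and 6308 in KO and 4486, 4156 and 4281 with GH (-0.42 ± 0.112), against 3777, 5129 and 4851 in WT and 5024, 4223 and 4271 in WT with GH (-0.02). The KO mice without GH are thus the high group for Mrps24, and the other 3 groups overlap. Both probe sets of Mrps24 are of the type that can match several transcripts. Mrps33 fell in both (0.36 and 0.42), Mrps35 and Mrps10 passed in WT (-0.42 and -0.35) and had -0.24 and -0.18 in KO (adjusted p = 0.201 and 0.135).

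The remaining members that fell were Mrpl4, Mrpl24, Mrpl27, Mrpl55, Mrps2 and Mrps23 in both genotypes, with log2 fold changes between -0.24 and -0.39. In KO there were also Mrpl16, Mrpl21, Mrpl34, Mrpl35, Mrpl42, Mrpl44, Mrpl50, Mrpl57, Mrpl58, Mrps12, Mrps17 and Mrps31, between -0.24 and -0.41, some of them proteins with a known further role such as Mrpl58, a peptidyl-tRNA hydrolase built into the ribosome, and Mrps12, which lies at the decoding centre. These calls were not equally firm: Mrps17 kept its call under all 24 alternatives run, and Mrpl42, with the fewest, kept its under 16. Mrps17 read 3257, 3042 and 3427 in KO and 2333, 2458 and 2490 in KO with GH, without overlap. In WT it read 2773, 3315 and 3128, and 2808, 2667 and 2658 in WT with GH, with overlap. Without overlap between the 3 arrays on each side, 52 members were lower and 3 higher with GH in KO (27.9% and 16.5% of all genes), and 28 lower and 1 higher in WT (21% and 13.3%).

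**Figure D2:**
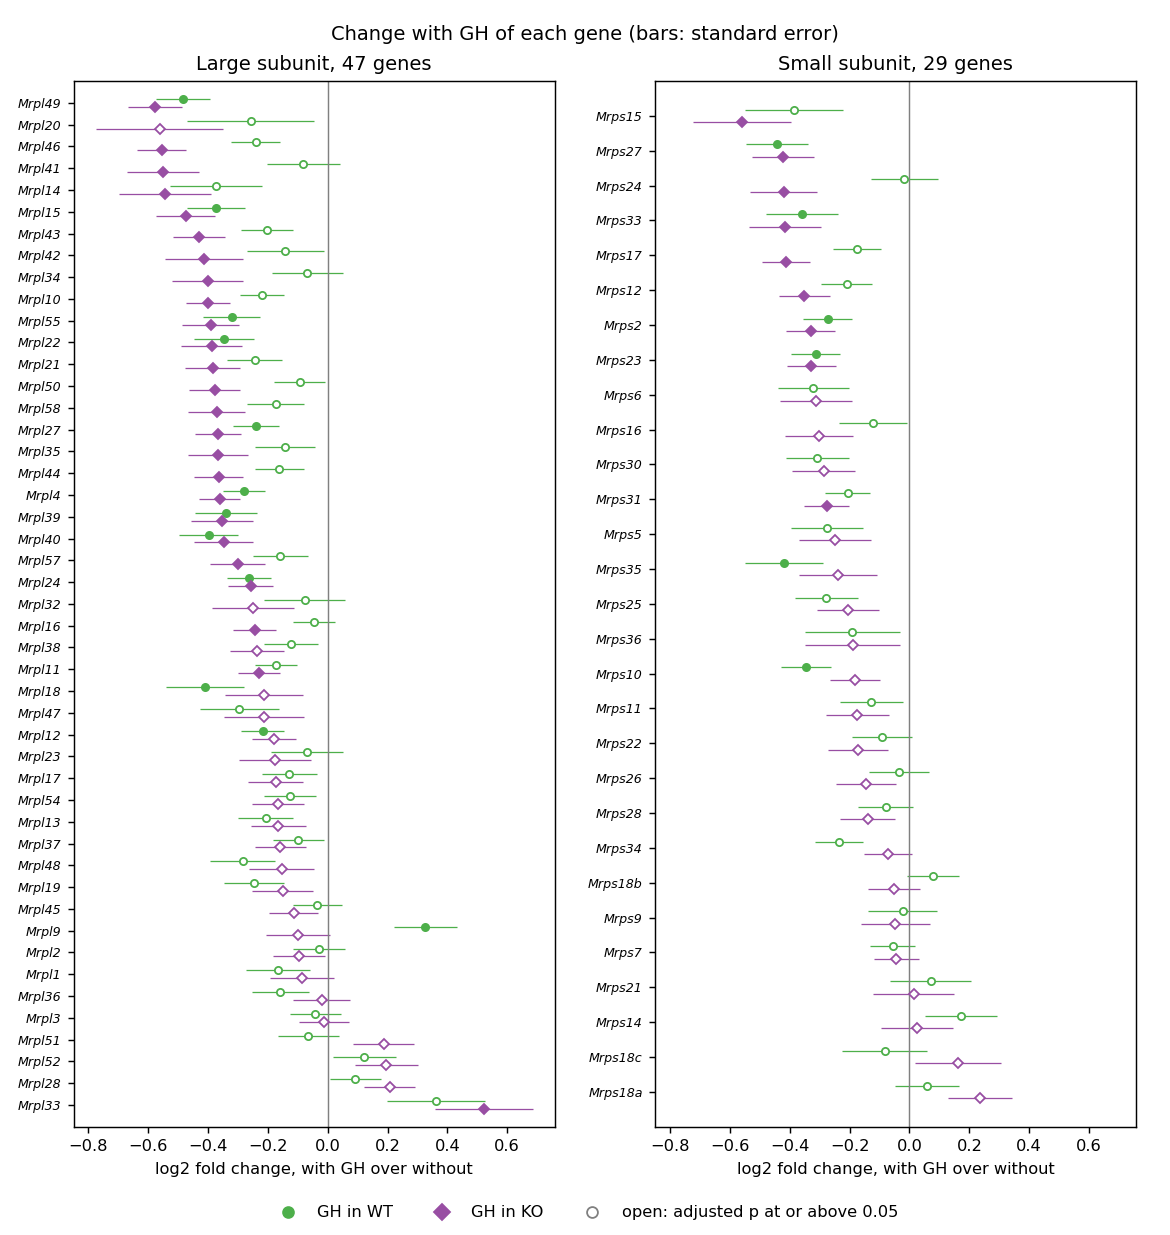
Log2 fold change with GH of every member (horizontal axis, with standard error) in WT (green circles) and KO (purple diamonds), large subunit left and small subunit right, ordered by the value in KO. Open symbols did not pass limma's threshold. Mrpl49 stands at the low end in both genotypes and Mrpl33 at the high end.

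The exceptions were Mrpl9 and Mrpl33. Mrpl9 read 2089, 1912 and 1691 in WT and 2545, 2221 and 2373 in WT with GH. These do not overlap, and Mrpl9 rose by 0.33 ± 0.106 (limma adjusted p = 0.0431), while in KO, with 2464, 1983 and 1997 against 2006, 1827 and 2156 with GH, it had -0.10 (adjusted p = 0.538). Mrpl33 read 1026, 673 and 754 in KO and 1168, 1181 and 1148 in KO with GH and rose by 0.52 ± 0.164 (adjusted p = 0.0315). In WT it had 0.36 ± 0.164 (adjusted p = 0.141), from 770, 1112 and 872 to 960, 1195 and 1404. Neither rise passed with each array centred on its median (0.14 for Mrpl9 and 0.34 for Mrpl33), nor did Mrpl33 without KO 2, without KO 3 or without any 1 of the 3 KO arrays with GH, which left 0 members higher in KO. Mrpl9 lost its call without any 1 array of WT 2, WT 3 or the 6 with GH, which left 0 higher in WT.

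**Figure D3:**
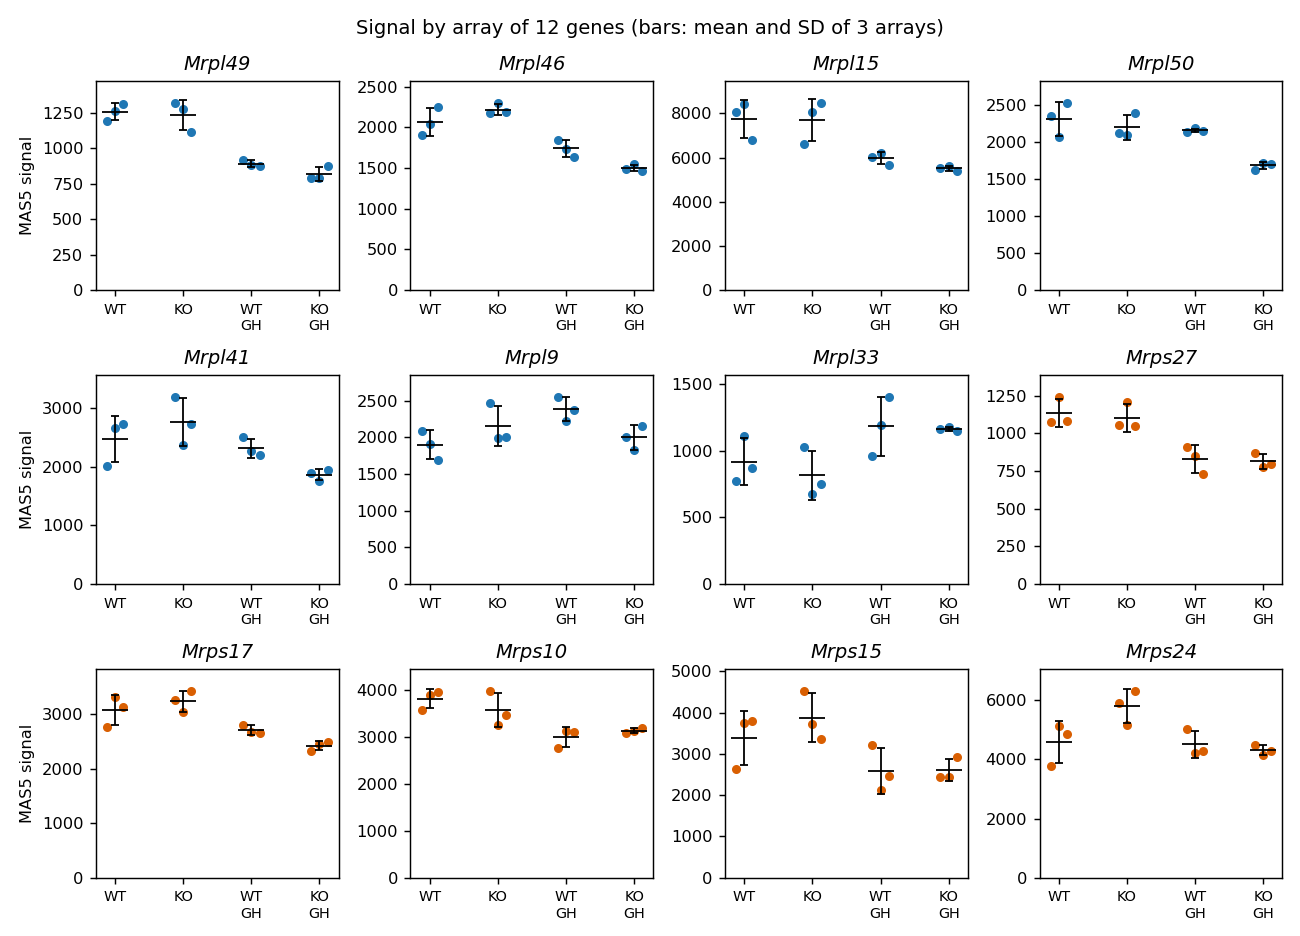
Signal (vertical axis, from 0) of 12 members on each array, by group, with the mean and SD of the 3 arrays; large subunit genes are blue and small subunit genes orange. Mrpl49 and Mrps27 are lower in both groups with GH, Mrpl9 and Mrpl33 are the members that rose, and Mrpl50 is lower in KO with GH than in the 3 other groups.

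How many members passed depended on the scaling of the arrays. With each array centred on its median over all probe sets, 49 fell with GH in WT and 57 in KO, and none rose, when 31.1% and 33.2% of all genes fell. This centring moved the median of all genes from -0.06 to -0.24 in both, and the members moved with it, to -0.36 in WT and -0.42 in KO. Centring on the median over the genes kept, added after the data were seen, gave 7 members lower in WT (9.21%) and 21 in KO (27.6%), when 8.67% and 10.8% of all genes fell, so that in WT the members' share was near that of all genes. The members' median lay -0.12 in WT and -0.18 in KO from that of all genes, a difference that a constant added to each array cannot change. With quantile normalization it was -0.07 and -0.12, and 15 and 33 members fell (12.9% and 16% of all genes). The other 3188 genes of like brightness (log2 10.1 to 12.7, a band set after the data were seen that holds 68 of the members) had medians of -0.06 in WT and -0.08 in KO, and 16.6% and 21.8% of them fell. Mrpl49 and Mrps27 kept their calls in both genotypes under all 24 alternatives run. In KO so did Mrpl4, Mrpl10, Mrpl15, Mrpl22, Mrpl43, Mrpl44, Mrpl46, Mrpl55, Mrps2 and Mrps17.

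The count in WT muscle rested on single arrays. With all arrays 17 members fell with GH in WT, which is 22.4% of them. Without WT 1 there were 35 (46.1% of members, 11.5% of all genes). Without WT 2 there were 7 (9.21% of members, 10.3% of all genes), and without the 2nd WT array with GH also 7 (9.21% and 8.5%). Without WT 3, or without the 3rd WT array with GH, 8 fell (10.5% of members, against 8.54% and 7.82% of all genes). In these last 4 fits the share of members that fell in WT was thus near that of all genes. Without WT 1 and KO 3 together 37 fell in WT and 40 in KO (13.9% and 17.6% of all genes). In KO the count ran from 22 without KO 1 or without the 2nd KO array with GH (28.9% of members, 12.2% and 10.3% of all genes) to 41 without WT 1 (53.9% and 18.5%).

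Averaged over its genes and the arrays of a group, each subunit had a lower level with GH. The mean log2 value of the large subunit was 11.47, 11.67 and 11.66 on the 3 WT arrays and 11.46, 11.42 and 11.42 with GH, and 11.70, 11.59 and 11.61 in KO and 11.39, 11.38 and 11.39 with GH. That of the small subunit was 11.27, 11.48 and 11.47 in WT and 11.29, 11.19 and 11.23 with GH, and 11.50, 11.41 and 11.38 in KO and 11.23, 11.24 and 11.22 with GH. In KO the arrays with and without GH did not overlap in either subunit. In WT they did in the small subunit, through WT 1, and in the large subunit WT 1 lay just above the highest array with GH. With each array centred on its median, WT 1 read 11.52 and 11.32 for the 2 subunits and the WT arrays with GH at most 11.39 and 11.21, so that neither overlapped. The members also varied less between replicates with GH: the median SD over the members was 0.153 in WT and 0.108 in KO without GH, and 0.0739 and 0.0446 with GH, while over all genes it was 0.177, 0.166, 0.135 and 0.0997.

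**Figure D4:**
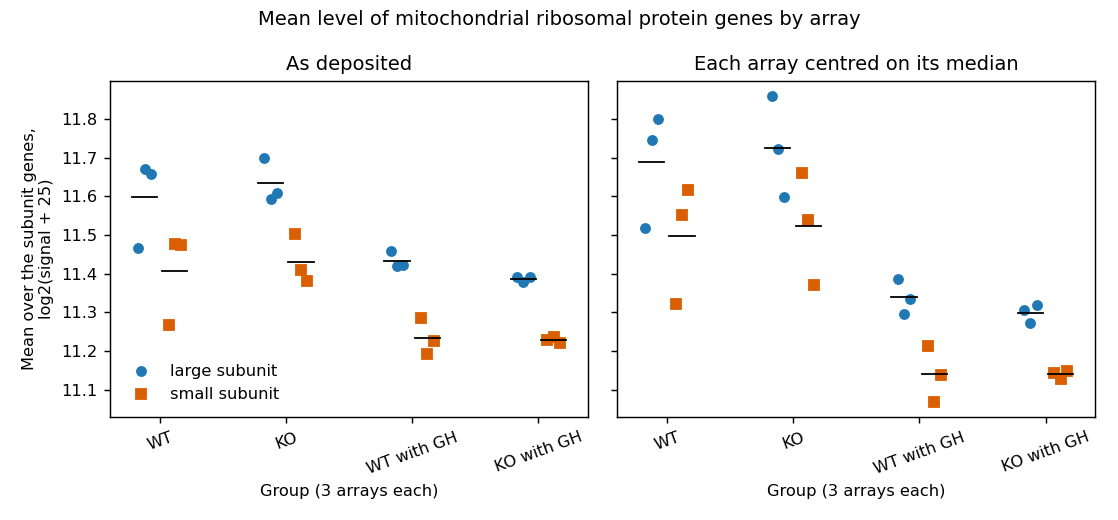
Mean log2(signal + 25) over the 47 large subunit genes (blue circles) and the 29 small subunit genes (orange squares) on each array, by group, as deposited (left) and with each array centred on its median (right); bars are group means. The group means of both subunits are lower with GH, and WT 1 is the low array among the WT mice without GH.

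In KO 24 of 47 large subunit genes (51.1%) and 9 of 29 small subunit genes (31%) fell with GH, and in WT 11 (23.4%) and 6 (20.7%). Of all genes 15.4% fell in KO and 11.8% in WT. Medians were -0.25 and -0.21 in KO and -0.17 and -0.19 in WT. With median centring 37 and 20 fell in KO and 33 and 16 in WT, when 33.2% and 31.1% of all genes fell. The difference of the subunit means, large minus small, does not change with centring. It was 0.198, 0.192 and 0.183 in WT, 0.197, 0.184 and 0.227 in KO, 0.173, 0.228 and 0.197 in WT with GH, and 0.163, 0.144 and 0.171 in KO with GH. The KO arrays with GH lay below the other 9, though only just below the lowest of them, and the mean change with GH in KO, large minus small, was -0.0431 on the log2 scale. In structures of the mammalian ribosome Mrps30 and Mrps18a sit in the large subunit, and Mrps36 belongs to the ketoglutarate dehydrogenase complex. Assigned so, the difference was 0.242, 0.241 and 0.221 in WT, 0.221, 0.208 and 0.235 in KO, 0.229, 0.266 and 0.248 in WT with GH and 0.197, 0.201 and 0.207 in KO with GH, and the mean change was -0.0199.

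Split by descent instead, of the 31 proteins found only in mitochondria 16 fell with GH in KO and 8 in WT, with medians of -0.29 and -0.20. Of the 45 with a bacterial counterpart 17 fell and 1 rose in KO, and 9 fell and 1 rose in WT, with medians of -0.21 and -0.16. All 11 mitochondria-specific members named Mrps, Mrps30 and Mrps36 among them, had negative log2 fold changes in both genotypes, and 4 passed in each. Of all genes 15.4% fell in KO and 11.8% in WT.

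The probe sets of a gene did not always agree. The 36 members with several probe sets above the floor had probe sets of the same sign in 17 cases with GH in WT and in 16 with GH in KO. Of the 17 of them that were called in KO 10 had the same sign throughout, and 4 of 8 in WT. Mrps23 was the member with opposite calls: the probe set used fell by 0.33 with GH in KO, while a dimmer one that can cross-hybridize rose by 0.73 (adjusted p = 0.0222 over probe sets). With the mean of all probe sets, 21 members fell in KO and 14 in WT (11.9% and 9.08% of all genes). Over the members' 140 probe sets above the floor, 46 were called lower and 4 higher with GH in KO, and 22 and 1 in WT. The share over all probe sets in that fit is not given here, so these counts have no background beside them.

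Between the genotypes the genes differed little. With GH, 1 of 76 members was lower in KO than in WT and none was higher (2.11% and 2.42% of all genes). That gene was Mrpl50, a large subunit protein found only in mitochondria. Its signal was 2140, 2183 and 2145 in WT with GH and 1624, 1720 and 1702 in KO with GH, without overlap, and it was -0.35 ± 0.0861 on the log2 scale (limma adjusted p = 0.0267). Without GH the genotypes overlapped, with 2354, 2059 and 2518 in WT and 2113, 2088 and 2388 in KO. Its 2nd, dimmer probe set gave 0.07, and the call was lost without any 1 of the 6 arrays with GH, which left 0 members lower. At an unadjusted p under 0.05 there were 7 members, all lower. Fitted on the arrays with GH alone, 4 members were lower (5.26%) and 2 higher, when 5.39% of all genes were lower and 4.88% higher. Over all members, 17 were lower and 10 higher without overlap of the arrays (16.3% and 13.8% of all genes), 13 and 6 of them in the large and 4 and 4 in the small subunit. Medians were -0.05 and 0.00 for the large and small subunit.

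Without GH, 0 of 76 members passed limma's threshold between KO and WT, where 0.774% of all genes were higher and 0.68% lower. At an unadjusted p under 0.05 there were 4, of which 3 were higher. The smallest p belonged to Mrps24 (0.34 ± 0.112, adjusted p = 0.191), Mrps18a (-0.32 ± 0.107, adjusted p = 0.212) and Mrpl35 (0.24 ± 0.0995, adjusted p = 0.349). Mrpl35 read 3038, 4109 and 4043 in WT and 4596, 4305 and 4218 in KO, the groups being apart by little. Mrps18a read 4753, 6093 and 5976 in WT and 4956, 4499 and 4013 in KO, which overlap. The medians were 0.03 for each subunit, and 2 members were higher and 1 lower without overlap (6.2% and 7.03% of all genes). Without WT 1, 2 members were lower in KO (2.63% of members, 0.84% of all genes). The slow fibre markers, by contrast, had a summed signal of 18580 to 41540 in WT and 46680 to 56200 in KO, with 6 of 9 called higher.

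The interaction of genotype and GH passed for 0 of 76 members, with 0.624% of all genes higher and 0.308% lower, and for 5 members at an unadjusted p under 0.05. These were all lower, meaning a more negative change with GH in KO than in WT. The smallest p belonged to Mrpl9 (-0.43 ± 0.15, limma adjusted p = 0.297), Mrpl41 (-0.47 ± 0.171, adjusted p = 0.32) and Mrpl46 (-0.31 ± 0.115, adjusted p = 0.323). The median was -0.08 for the large and -0.05 for the small subunit, against -0.01 over all genes. With array weights the members' median was -0.01, and without WT 1 it was -0.01.

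Levels of other cells' markers also differed with GH. Beside the counts below, 11.8% of all genes fell and 7.33% rose with GH in WT, and 15.4% and 8.93% in KO. The 6 macrophage markers summed to 8745 to 14860 in WT and 8330 to 11820 in KO, and to 6332 to 6549 in both groups with GH, where 3 fell in WT and 5 in KO. The 5 adipocyte markers summed to 40120 to 57120 in WT and 40320 to 67240 in KO, against 35080 to 37740 and 35070 to 37880 with GH, and 3 fell in each genotype. The 3 brown adipocyte markers, from a tissue rich in mitochondria, summed to 4989 to 16110 in WT, 5524 to 13040 in KO, 4690 to 4788 in WT with GH and 5444 to 5591 in KO with GH, and none passed. The 6 endothelial markers summed to 4771 to 5337 in WT and 4674 to 5441 in KO, against 3721 to 4087 and 4281 to 4706 with GH, and 3 fell and 1 rose in each genotype. The slow fibre markers summed to 37850 to 39580 in WT with GH and 43490 to 44630 in KO with GH. With GH 6 of the 9 rose in WT, and 1 fell in KO. Of the 9 fast fibre markers 7 fell with GH in KO. These markers are among the brightest genes, with a median signal of 51810. All genes kept with mean log2 values from 15 to 15.5 had a median of -0.33 with GH in KO. Those from 15.5 up had -0.42, against -0.06 over all genes. The part of brightness in the falls of the fast fibre markers was not tested. The part of these cells and fibres in the falls of the ribosomal protein genes was not tested.

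The partners of the mitochondrial ribosome were read from 7 lists. Across all genes 11.8% fell and 7.33% rose with GH in WT, and 15.4% fell and 8.93% rose in KO. The median over all genes was -0.06 in both. The lists are short, and several of their counts lie near or below these shares. Of 5 further subunits under other names, the GTP-binding small subunit protein Dap3 fell with GH by 0.36 ± 0.0758 in WT and 0.34 ± 0.0758 in KO (limma adjusted p = 0.00423 and 0.00455), and Gadd45gip1, a large subunit protein, by 0.31 in KO. Of 23 assembly factors 4 fell in WT, and in KO 5 fell and 1 rose. The ribosomal RNA methyltransferase Mrm2 fell by 0.80 and 0.85 in WT and KO, and the small subunit maturation factor Rbfa by 0.66 and 0.76, larger falls than that of any Mrpl or Mrps gene. Mterf4 and Mterf3 (-0.36 and -0.25) passed in WT, and the GTPase Mtg2 (-0.51), Mettl17 (-0.56) and Noa1 (-0.39) in KO. Fastkd2 rose in KO by 0.29, but not with median centring (0.11). Medians were -0.09 and -0.11.

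Of 13 translation factors 3 fell in each genotype and none rose. Tufm, the elongation factor that brings tRNA to the ribosome, fell by 0.45 in WT and 0.80 in KO, and its exchange factor Tsfm by 0.49 in WT. Pdf, which removes the formyl group from new proteins, fell by 0.22 and 0.25, and Gfm2, which takes part in ribosome recycling, by 0.29 in KO. Of 17 tRNA synthetases 3 fell in WT (Nars2 by 0.46, Hars2 by 0.53 and Fars2 by 0.26) and 1 in KO (Rars2 by 0.29), beside 11.8% and 15.4% of all genes. Of 14 genes for replication and transcription of mitochondrial DNA only the RNA polymerase Polrmt passed. It rose by 0.38 ± 0.0818 in WT and 0.31 ± 0.0818 in KO, but not with median centring (0.19 and 0.13).

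**Figure D5:**
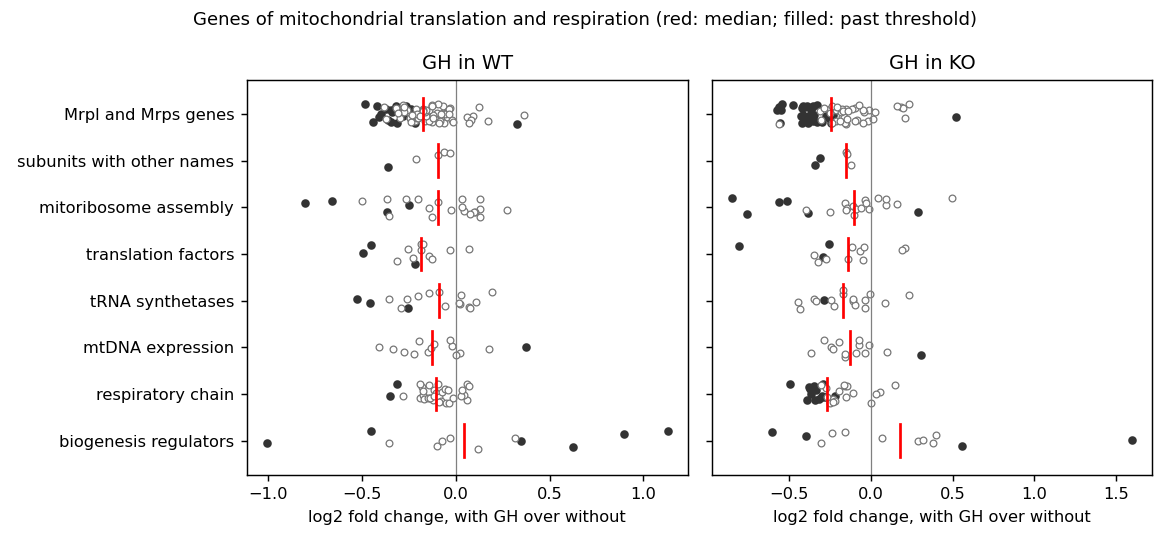
Log2 fold change with GH (horizontal axis, values as deposited) of each gene of the Mrpl and Mrps group and of 7 related lists in WT (left) and KO (right). Filled points passed limma's threshold and red bars are medians. Falls predominate among the filled points of most lists, while the biogenesis regulators spread to both sides. Falls also predominate over all genes (11.8% lower and 7.33% higher in WT, 15.4% and 8.93% in KO).

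Of 33 nuclear genes of the respiratory chain 2 fell with GH in WT, Sdhc by 0.35 and Ndufa4 by 0.31, and 15 fell in KO, among them cytochrome c, Cycs (0.50 ± 0.0991, limma adjusted p = 0.00226), Ndufa4 (0.37), Ndufs3 and Atp5d (0.35 each). Medians were -0.11 and -0.27, and 11.8% and 15.4% of all genes fell. The regulators of mitochondrial biogenesis changed in both directions. In WT 4 of 12 rose and 2 fell with GH: the coactivator Ppargc1b fell by 1.01 ± 0.105 (adjusted p = 1.5e-05) and the GABP subunit Gabpb1 by 0.45, while the nuclear receptor Ppara rose by 1.13 and Myc by 0.89. The 2 other rises, of Esrrg and Ppard, did not pass with median centring. In KO 2 rose and 2 fell: Myc rose by 1.60 ± 0.138 (adjusted p = 1.39e-06) and Ppard by 0.56, and Ppargc1b fell by 0.61 and Gabpb1 by 0.40.

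Between the genotypes with GH, the regulators were the only list of the 7 with a call: Ppargc1b was higher in KO (0.60), and Ppara and the coactivator Ppargc1a were lower (-0.98 and -0.88). No gene of the 7 lists passed limma's threshold between the genotypes without GH, where the smallest adjusted p was that of Esrra (-0.36 ± 0.103, adjusted p = 0.124), or in the interaction, where it was that of Myc (0.70 ± 0.195, adjusted p = 0.143).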

How the data were processed

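RNA of 12 mouse muscle samples was hybridized to 1-colour Affymetrix arrays. The deposited values are intensity on a linear scale, made by the authors with MAS5 per the submitters' processing notes; its version and settings are not given in the sources used here. The mean of each array without its lowest and highest 2% of probe sets was 500, which is a scaling per array. Genes were named from the platform annotation, and 3 arrays per group limit the precision.

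Values were taken as log2(signal + 25). A gene was kept where its probe set's mean exceeded the 40th percentile of probe set means. Groups were compared with limma 3.58.1 in R 4.3.3 (1 mean per group, 8 residual degrees of freedom, eBayes with trend and robust, 2-sided, Benjamini-Hochberg over 12654 genes, threshold 0.05), tested on simulated data. "Rose", "fell" and "passed" refer to that threshold. Probe sets were compared in the same fit over all probe sets above the floor. P-values measure the spread between arrays taken as separate animals by their titles. Named were the 10 largest rises and falls past the threshold per comparison, or the 3 members with the smallest p where none passed, members whose probe sets had opposite calls, and the genes with the smallest p of each pathway list; other genes were chosen after their values were seen. Members, lists and rules were chosen with earlier results of these data known. Alternatives covered scaling, pseudocount, filter, probe set choice, arrays in the fit and array weights.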

Additional observations from a re-analysis of the deposited data

How the results depend on the processing

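Of 605 values of counts, subunit medians and subunit differences under alternatives, 538 stayed within the limits set for them and 67 moved. Centring each array on its median gave 0 members higher and 49 lower with GH in WT, with medians of -0.35 (large) and -0.38 (small), and 0 higher and 57 lower in KO, with -0.43 and -0.39. Centring on the genes kept gave 7 lower in WT, 2 higher and 21 lower in KO with medians of -0.19 and -0.15, and a large subunit median of -0.0274 for KO against WT with GH. Of all genes 8.67% were lower with GH in WT in that fit, and 10.7% higher and 10.8% lower in KO. The mean of all probe sets gave 0 lower for KO against WT with GH, 0 higher with GH in WT with a small subunit median of -0.092 and a large minus small difference of -0.0167, and 0 higher and 21 lower in KO with -0.14 and -0.073. It reversed the sign of Mrps10 in WT (0.00500) and of Mrpl42 (0.108), Mrps23 (0.0805) and Mrps31 (0.0191) in KO, through the genes' other probe sets. Of all genes 2.28% were lower for KO against WT with GH in that fit. For GH 8.39% were higher in WT, and 9.8% higher and 11.9% lower in KO. No filter gave 0 members higher with GH in WT, when 4.78% of all genes were higher. Fits on 2 groups gave 2 higher and 4 lower for KO against WT with GH, and 0 higher and 9 lower with GH in WT. For GH in WT 5.68% of all genes were higher and 8.53% lower in that fit, and for KO against WT with GH 4.88% and 5.39%. Array weights gave 3 lower for KO against WT with GH, 36 lower with GH in WT and 2 higher in KO (5.59%, 14.9% and 12.5% of all genes). Without _x_at and _s_at probe sets the large minus small difference for KO against WT without GH was 0.0304, and with subunits assigned by structure it was -0.0132 there and -0.0199 for GH in KO. Leaving out both WT 1 and KO 3, a setting added with the data known, KO against WT had 1 lower without GH and 2 higher and 2 lower with GH, and GH gave 37 lower in WT, 0 higher in KO and large subunit medians of -0.26 and -0.30. Of all genes, 0.951% were lower in KO than in WT without GH in that fit, and 3.95% higher and 4.2% lower with GH. For the change with GH, 13.9% of all genes were lower in WT and 10.6% higher in KO. The causes were not tested.

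Leaving out 1 array gave 0 to 2 members lower for KO against WT without GH, 0 to 1 with GH, 0 to 1 higher and 7 to 35 lower with GH in WT with a large subunit median of -0.26 to -0.14, and 0 to 1 higher in KO with -0.30 to -0.23. Of all genes 0.451% to 1.03% were lower for KO against WT without GH in these fits, and 1.27% to 3.05% with GH. For GH in WT 5% to 8.13% of all genes were higher and 7.82% to 13.3% lower. For GH in KO 6.04% to 10.3% were higher. No paired analysis was possible because every array's title carries a different animal number and nothing links animals across groups.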
